A study of Mus musculus with 2 samples.

Results

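The Bcl2 family genes that decide between survival and death of a cell were examined in the second polar body (PB2) and the zygote of the mouse embryo. The rule named 10 genes, and the 5 of them that have a row of their own in the TPM table, out of 11262 genes in all, are described here: the prosurvival genes Bcl2l10, Bcl2l1 and Mcl1, the effector Bax and the BH3-only gene Bcl2l11. Bcl2, Bak1, Bok, Bad and Bid were not analysed here. Both libraries came from untreated embryos at the one-cell stage, of the strain C57BL/6 by the labels and C57BL/6N by the study's methods, which were taken from the oviduct and cultured in KSOM. At the late one-cell stage the zona pellucida was dissolved with acid Tyrode's solution, and PB2s were pipetted off in trypsin. Pooled PB2s made up 1 library and pooled zygotes the other, each from amplified full-length cDNA. PB2 is the small cell that leaves the egg at the end of meiosis, after sperm entry, and it shares its origin with the cytoplasm of the zygote. Each group has 1 library, so no test was run, nothing is known of how far repeat samples would differ, and every difference is one between these 2 libraries.

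Proteins of the Bcl2 family act mainly at the outer membrane of the mitochondrion. Effectors such as Bax, once active, form pores there through which cytochrome c leaves and starts the caspases, prosurvival proteins hold the effectors in check, and BH3-only proteins such as Bim, the product of Bcl2l11, respond to stress by binding prosurvival proteins or by activating the effectors. Oocytes depend on this balance during follicle loss. Polar bodies commonly degenerate in the course of early development. The embryo at this stage lives largely on mRNA stored by the oocyte, and the length of the poly(A) tail, set from elements near the 3′ end, helps to decide whether such mRNA is translated or degraded.

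For that reason the 3′ ends of the 5 transcripts are shown, each as the 30 bases that close 2 bases after the last AATAAA, the poly(A) signal, of the longest protein-coding transcript in the basic set of GENCODE M21. Capitals mark the poly(A) signal and, where present, a cytoplasmic polyadenylation element (TTTTAT or TTTTAAT on the transcript strand), the binding site known for Cpeb proteins. All windows lie in the last exon, in the 3′ UTR, and are given 5′ to 3′ on the strand of the gene with their position in GRCm38.
Bcl2l10 (chr9:75351590-75351619, plus strand): tTTTTAATaacttcaaattcttAATAAAtg
Bcl2l1 (chr2:152780687-152780716, minus strand): gaaggtgaaagtgcagttcagtAATAAAtg
Mcl1 (chr3:95663136-95663165, plus strand): cttctgtttcttctgaagagaaAATAAAcc
Bax (chr7:45461716-45461745, minus strand): aatggtggcctggggaggcgccAATAAAcc
Bcl2l11 (chr2:128162502-128162531, plus strand): tgttcttaatgaaTTTTATataAATAAAac
All 5 members carried AATAAA within the last 50 bases, as did 64.0% of the 10606 compared genes with a transcript. A cytoplasmic polyadenylation element within the last 100 bases was present in 2 of the 5 members, Bcl2l10 and Bcl2l11, and in 19.7% of those genes. In Bcl2l10 the element was TTTTAAT, and 14 bases separated it from the poly(A) signal. Bcl2l11 had TTTTAT at 2 positions, 3 and 21 bases before the signal, of which the nearer one is in the window. None of these elements overlapped the poly(A) signal. These matches describe the annotated 3′ ends, and which ends the transcripts had in PB2 or the zygote was not measured.

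The family was dominated by a single prosurvival transcript in both libraries. Bcl2l10, which codes for an oocyte-rich protein also called Diva or Boo that is grouped here with the prosurvival members although both protective and death-promoting actions have been described for it, had 18407 TPM in the zygote against 22397 TPM in PB2, where TPM is a transcript level adjusted for gene length and for the library's total. It ranked 3 among all genes in the zygote and 2 in PB2, and alone made up 1.84% and 2.24% of a full library's TPM. The other members lay far below. Bax, the effector, had 47.2 TPM in the zygote against 60.4 TPM in PB2. Bcl2l1, which codes for the prosurvival protein Bcl-xL, had 26.6 TPM in the zygote against 72.9 TPM in PB2. These genes were of fairly high abundance, since between 70.3% and 83.4% of the genes of the table had lower values.
Bcl2l11 had 3.80 TPM in the zygote against 10.6 TPM in PB2. Mcl1, which codes for a short-lived prosurvival protein, had 3.0 TPM in the zygote against 4.8 TPM in PB2. Both were below the median gene of the table, which had 8.70 TPM in the zygote against 11.1 TPM in PB2. From the highest level to the lowest, the order in the zygote was Bcl2l10, Bax, Bcl2l1, Bcl2l11 and Mcl1. In PB2 it was the same except that Bcl2l1 stood above Bax. The plot of levels by library shows this crossing and the distance of Bcl2l10 from the rest.

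**Figure D1:**
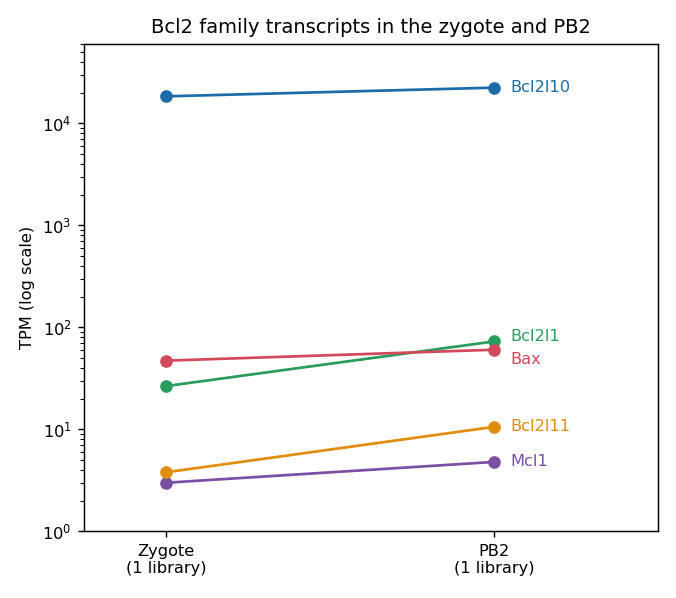
TPM of the 5 Bcl2 family members (log axis) in the zygote and in PB2, 1 library each, with a line joining the values of one gene. Bcl2l10 lies at 18407 and 22397 TPM, the other members between 3.0 and 72.9 TPM, and the lines of Bcl2l1 and Bax cross.

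The members differed in how they were divided between PB2 and the zygote. Each deposited level was higher in PB2, a direction that turned for Bax and Bcl2l10 once the trend on GC content described below was removed, and by unequal amounts: Bcl2l11 was 2.79 times and Bcl2l1 2.74 times as high, Mcl1 1.60 times, Bax 1.28 times and Bcl2l10 1.22 times. The values were deposited to 1 decimal, and for Mcl1, the lowest member, that rounding allows a ratio between 1.56 and 1.64. With 1 TPM added to each level before the ratio was taken, which damps the ratios of low values, the log2 ratio of PB2 to zygote was 1.42 for Bcl2l1, 1.27 for Bcl2l11, 0.54 for Mcl1, 0.35 for Bax and 0.28 for Bcl2l10. All log2 ratios given below are on this scale.
Genes with at least 1 TPM in either library, 10645 of them, were compared in this way. Of these, 59.2% had a log2 ratio above 0, so a higher value in PB2 was common in the table, and all 5 members were among them. Past 2-fold towards PB2 were 2 of the 5 members, Bcl2l1 and Bcl2l11, against 18.9% of the genes compared. Neither call held under every adjustment: with the trend on transcript GC content removed 1 member passed, Bcl2l11, as Bcl2l1 was at 0.69, and with the trend on transcript length removed 1 passed, Bcl2l1, as Bcl2l11 was at 0.92. The number of all genes past 2-fold towards PB2 went from 2009 to 968 and 1285 with these trends removed. Subtracting a trend also takes out the table's common shift towards PB2, and centring on the median alone gave 1387. Past 2-fold towards the zygote were 0 of the 5, against 8.09% of the genes compared.
Bcl2l1 had a larger log2 ratio than 91.4% of the genes compared and Bcl2l11 a larger one than 88.5%. Mcl1 stood above 63.9% of the genes, Bax above 55.8% and Bcl2l10 above 52.9%. The last 3 therefore lay near the middle of the table, whose median log2 ratio was 0.21, with quartiles at -0.38 and 0.82. The median over the 5 members was 0.54. Measured from the median of the table, the log2 ratio was 1.21 for Bcl2l1, 1.06 for Bcl2l11, 0.33 for Mcl1, 0.14 for Bax and 0.07 for Bcl2l10. With the levels taken relative to Actb, which had 120.0 TPM in the zygote against 134.8 TPM in PB2, the log2 ratios were 1.26 for Bcl2l1, 1.13 for Bcl2l11, 0.40 for Mcl1, 0.18 for Bax and 0.12 for Bcl2l10.

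**Figure D2:**
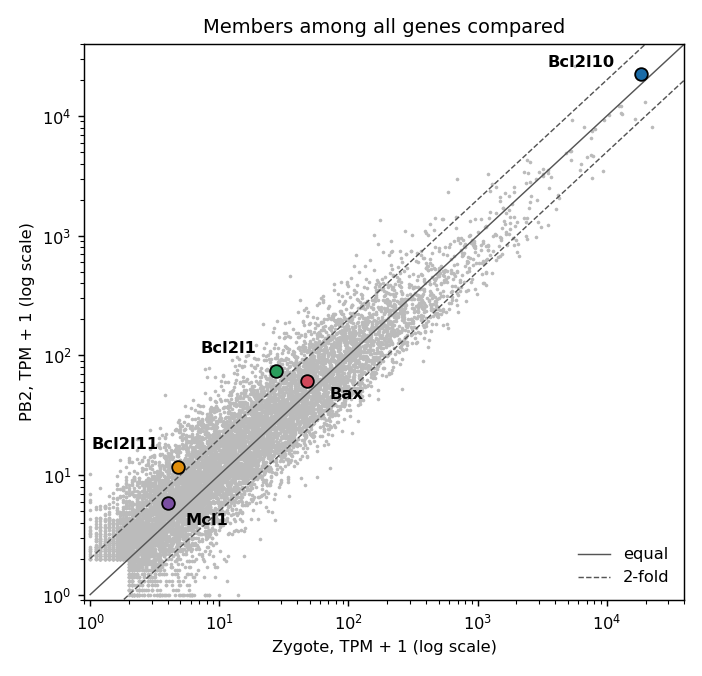
Level in PB2 against level in the zygote, both as TPM + 1 on log axes, for the 10645 genes compared (grey) and the 5 members (coloured), with lines for equal levels and for a 2-fold difference. Bcl2l1 and Bcl2l11 lie above the upper 2-fold line, while Bcl2l10, Bax and Mcl1 lie between the lines.

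Ratios between members inside a library do not depend on how the libraries were scaled to each other. Compared across the libraries, they are still open to the trends on GC content and length. Bax was 1.77 times as abundant as Bcl2l1 in the zygote, and 0.83 times as abundant in PB2. On the log2 scale the Bax to Bcl2l1 ratio, which sets an effector beside one of its main inhibitors, differed by -1.10, PB2 minus zygote. Rounding leaves the first ratio between 1.77 and 1.78 and the second at 0.83, so the reversal of the order is larger than the rounding of the table. With the trend on length removed, the log2 ratios were 0.71 for Bax and 1.13 for Bcl2l1, a gap too small to turn the zygote's order. With the trend on GC content removed they lay further apart, at -0.57 and 0.69. The reversal seen in the deposited levels was thus undone by removing the length trend and not by removing the GC trend. By deposited level, the ratio of Bcl2l1 to Bcl2l11 was nearly the same in both, at 7.0 in the zygote and 6.88 in PB2. With the GC trend removed their log2 ratios of PB2 to zygote lay apart, at 0.69 and 1.16. The ratio of Bcl2l10 to Bax was also close by deposited level, at 390.0 in the zygote and 370.8 in PB2. With the GC trend removed the log2 ratios of these 2 genes were -0.04 and -0.57.
Bcl2l10 was 692.0 times as abundant as Bcl2l1 in the zygote and 307.2 times in PB2. It exceeded Bcl2l11 by 4844 times and by 2113 times, and Mcl1 by 6136 times and by 4666 times. The 2 members past 2-fold, Bcl2l1 and Bcl2l11, differ in role: the first restrains effectors, and the second is a trigger of death.

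Summed by role, the 3 prosurvival members had 18437 TPM in the zygote against 22475 TPM in PB2. This was 390.6 times the level of Bax, the only effector among the members, in the zygote and 372.1 times in PB2. Nearly all of this sum is Bcl2l10. Without it, the prosurvival sum of Bcl2l1 and Mcl1 was 29.6 TPM in the zygote, 0.63 times that of Bax, and 77.7 TPM in PB2, 1.29 times that of Bax. By deposited level, the prosurvival genes other than Bcl2l10 therefore stood below the effector in the zygote and above it in PB2. The limit given above for Bax and Bcl2l1 under the length trend applies here too. Levels are of mRNA, the proteins were not measured, and effectors and BH3-only genes not analysed here are missing from these sums.

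The members lie on 4 chromosomes of GRCm38. In the GENCODE M21 annotation Bcl2l10 (ENSMUSG00000032191) is a gene of 2 exons on chromosome 9, from 75347758 to 75351632 on the plus strand. Bcl2l1 (ENSMUSG00000007659) has 3 exons and runs on the minus strand of chromosome 2 from 152780668 to 152831728. Bcl2l11 (ENSMUSG00000027381), also on chromosome 2, has 4 exons and runs on the plus strand from 128126038 to 128162547. Mcl1 (ENSMUSG00000038612) has 3 exons on the plus strand of chromosome 3, from 95658788 to 95663176. Bax (ENSMUSG00000003873) has 6 exons on the minus strand of chromosome 7, from 45461697 to 45466898. Exon numbers are those of the transcript used.
Their coding regions ranged from 576 bases in Bcl2l10 to 996 in Mcl1, and their 3′ UTRs over a far wider span. The 3′ UTR measured 4218 bases in Bcl2l11, 2353 in Mcl1, 1473 in Bcl2l1, 499 in Bcl2l10 and 165 in Bax. It made up 83.8% of the Bcl2l11 transcript and 19.0% of that of Bax. By total length the Bax transcript, with 867 bases, and that of Bcl2l10, with 1220, were among the short ones, since 3.60% and 9.33% of the genes were shorter. The Bcl2l11 transcript, with 5036 bases, exceeded 79.7% of the genes. Bcl2l10 and Bax, the members with the shortest transcripts, had the smallest log2 ratios, and with 5 genes this is a description only.

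Across the 10606 compared genes with a transcript, the log2 ratio moved with transcript GC content, with a Spearman's rho of 0.44 across genes, which share both libraries and are not replicates. The members covered a wide part of that range, with a GC content of 59.2% for Bax, 55.9% for Bcl2l1, 50.7% for Bcl2l10, 48.7% for Mcl1 and 48.0% for Bcl2l11, against a median of 49.2%. Set against the trend, they separated further. Bcl2l11, whose GC content is below the median, kept a log2 ratio of 1.16 after the trend was subtracted. Bcl2l1, at a GC content above that of 84.3% of the genes, went from 1.42 to 0.69 and no longer reached 2-fold.
Bax, richer in GC than 95.3% of the genes, went from 0.35 to -0.57, so it was lower in PB2 than genes of its GC content usually were. Bcl2l10 went from 0.28 to -0.04, which puts it on the trend, and Mcl1 from 0.54 to 0.37. The higher levels of Bax and Bcl2l10 in PB2 are therefore directions that turn with this adjustment. It also takes out the table's common shift. With centring on the median alone, Bcl2l1 was at 1.21, Bax at 0.14 and Bcl2l10 at 0.07. Whether the GC content had a part in the members' ratios was not tested.
Transcript length also mattered for a call. With the trend on length subtracted, the log2 ratio of Bcl2l11 was 0.92, just under 2-fold, and that of Bcl2l1 was 1.13. Centring on the median alone gave 1.06 and 1.21.

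**Figure D3:**
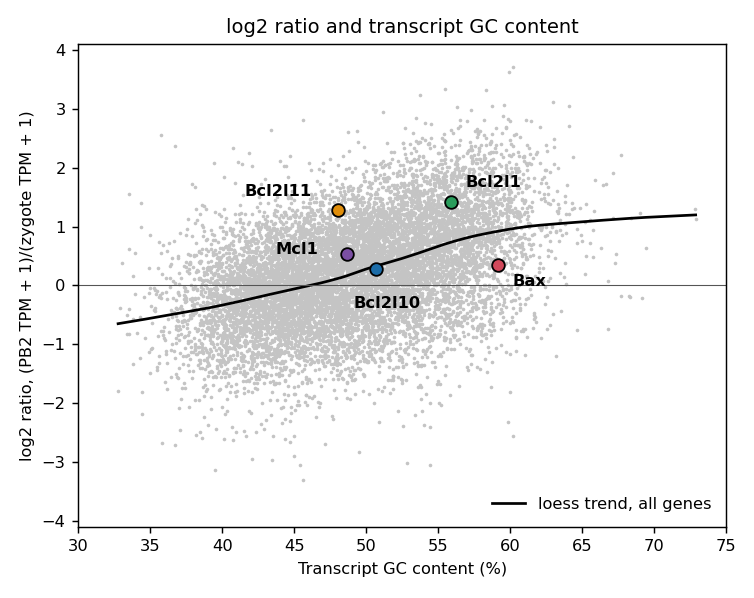
log2 ratio of PB2 to zygote, with 1 TPM added to each level, against transcript GC content (%), for compared genes with a transcript (grey), the 5 members (coloured) and the loess trend over all genes (black). Bcl2l11 and Bcl2l1 lie above the trend, by 1.16 and 0.69, Bcl2l10 lies on it and Bax lies below it, at -0.57.

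Other genes of the pathway were followed through 5 lists with 71 genes, of which 59 were in the table and 57 were compared. Of these, 12 (21.1%) passed 2-fold towards PB2 and 5 (8.77%) towards the zygote. Both shares are near those over all genes, 18.9% and 8.09%, and the median log2 ratio of 0.19 was near the 0.21 of the table. With the log2 ratios centred on the median of the table, 9 passed towards PB2 and 7 towards the zygote. Under the same centring 1387 and 1291 of the 10645 genes compared passed.

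Among further genes of the Bcl2 family, 9 of 16 listed were compared, 3 of them passed 2-fold towards PB2 and none towards the zygote, and the median log2 ratio was 0.32. Bnip3l, a mitochondrial BH3 protein known for its role in mitophagy, was the most abundant of them, with 131.5 TPM in the zygote against 149.8 TPM in PB2. Bcl2l13, another mitochondrial member of the family, had 5.10 TPM in the zygote against 16.0 TPM in PB2. Becn1, the autophagy protein that binds Bcl2 proteins through a BH3 domain, had 6.70 TPM in the zygote against 15.5 TPM in PB2. Bcl2l2, a prosurvival gene, was listed at 0 in the zygote, while its value in PB2 was 1.30 TPM. It was compared only through that low PB2 value, and with the GC trend removed its log2 ratio went from 1.20 to 0.70. Bcl2l13 and Becn1 stayed past 2-fold with that trend removed, at 1.26 and 1.16. None of these genes came near the level of Bcl2l10.

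The membrane partners, channels and receptors of the mitochondrion and the endoplasmic reticulum that bind family members, went both ways. Of the 9 genes compared, 2 passed 2-fold towards PB2 and 3 towards the zygote, with a median log2 ratio of -0.10. The voltage-dependent anion channels of the outer mitochondrial membrane were split. Vdac3, the most abundant gene of the list, had 838.9 TPM in the zygote against 348.6 TPM in PB2. Vdac2, known to bind Bak and Bax, had 100 TPM in the zygote against 37.2 TPM in PB2. Vdac1 had 37.5 TPM in the zygote against 97.9 TPM in PB2.
Bcap31, an endoplasmic reticulum protein that caspase-8 cleaves, had 537.8 TPM in the zygote against 178.2 TPM in PB2. Fkbp8, which anchors Bcl2 and Bcl-xL at mitochondria, had 2.90 TPM in the zygote against 20.9 TPM in PB2, a log2 ratio of 2.49. Removing the GC trend took this ratio to 1.45 and that of Vdac1 from 1.36 to 1.00, which is at the 2-fold limit. Towards the zygote, Vdac3, Vdac2 and Bcap31 then stood at -1.24, -1.63 and -1.68.

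Of the 16 genes that act on the stability or phosphorylation of family members, all compared, 3 passed 2-fold towards PB2 and 2 towards the zygote, and the median log2 ratio was 0.11. Ywhae, a 14-3-3 protein and the most abundant gene of the list, had 687.1 TPM in the zygote against 504.1 TPM in PB2. Ywhab, another 14-3-3 protein, had 217.7 and 521.2 TPM. Cdc20, an activator of the anaphase-promoting complex, had 96.0 TPM in the zygote against 392.0 TPM in PB2.
Itch, a ubiquitin ligase, had 7.0 TPM in the zygote against 2.0 TPM in PB2. Usp9x, the deubiquitinase that stabilizes Mcl1, was the other gene past 2-fold towards the zygote, with 70.0 TPM there and 29.0 TPM in PB2, and Huwe1, a ubiquitin ligase of Mcl1, had 5.90 and 7.40 TPM. The last pair was picked for its bearing on Mcl1 after the values were seen.

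Downstream of the pores, 13 of the 17 listed released factors, caspases and their inhibitors were compared. Past 2-fold were 2 of them towards PB2 and none towards the zygote, and the median log2 ratio was -0.04. Birc3, an inhibitor of apoptosis protein, was the most abundant, with 199.5 TPM in the zygote against 286.3 TPM in PB2. Casp2, a caspase known to act in oocyte death, had 4.8 TPM in the zygote against 12.4 TPM in PB2. Dffa, the inhibitor of the nuclease that cuts DNA in dying cells, had 1.10 and 4.6 TPM. With the GC trend removed Casp2 kept a log2 ratio of 1.11, while that of Dffa went from 1.42 to 0.89.
Among transcription factors known to control family genes and the regulators of those factors, 10 of 12 listed were compared, 2 passed 2-fold towards PB2 and none towards the zygote, and the median log2 ratio was 0.51. Mdm4, a partner and inhibitor of p53, was the most abundant, with 740.3 TPM in the zygote against 373.2 TPM in PB2. Its log2 ratio of -0.99 was just short of 2-fold towards the zygote. E2f1 had 14.7 TPM in the zygote against 88.5 TPM in PB2, and Foxo1, a forkhead factor, had 60.4 and 143.8 TPM. Removing the GC trend took the log2 ratio of E2f1 from 2.51 to 1.63 and that of Foxo1 from 1.24 to 1.09. In these 2 lists 11 of 13 and 8 of 10 of the genes compared stayed under 2-fold.

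**Figure D4:**
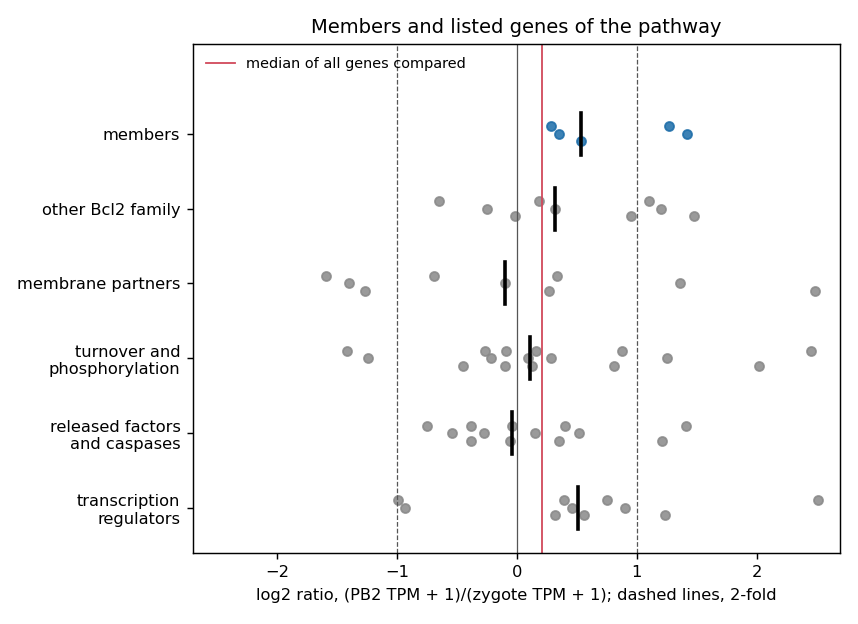
log2 ratio of PB2 to zygote, with 1 TPM added to each level, for the 5 members (blue) and the compared genes of 5 pathway lists (grey), 1 point a gene, with each list's median as a black bar. The red line marks the median of all genes compared, 0.21, and the dashed lines mark 2-fold. The members' points all lie to the right of the red line.

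Genes with the most similar pair of levels were found by the distance of log2(TPM + 1) over the 2 libraries. For Bcl2l10 these were Mphosph6, Omt2b and Tcl1, at distances of 0.78, 1.03 and 1.07, so no gene of the table lay close to it. Mphosph6 had 19693 TPM in the zygote against 13059 TPM in PB2. For Bax the nearest genes were Gspt2, Cpsf2 and Nipsnap1, at distances up to 0.03, and for Bcl2l11 they were Enkd1, Trp53i13 and Gar1, at distances up to 0.06.

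The 11262 genes covered 92.7% of the TPM of a full zygote library and 89.8% of that of a full PB2 library. The label of the samples as egg-derived was checked against 12 oocyte markers, all of which were present, with sums of 35572 TPM in the zygote against 28782 TPM in PB2. The order of these sums rests on Dppa3, with 22562 and 8070 TPM, and without it they were 13010 and 20712 TPM. Of the 12 markers 8 were higher in PB2, 4 passed 2-fold towards PB2 and 1 towards the zygote, and the median log2 ratio was 0.48. Over all genes compared, 59.2% were higher in PB2, 18.9% passed 2-fold towards PB2 and 8.09% towards the zygote, with a median of 0.21. Of 18 cumulus and granulosa cell markers 6 were in the table, and they summed to 88.0 TPM in the zygote against 89.5 TPM in PB2, mostly Cyp19a1 with 72.2 and 70.9 TPM. Of 6 sperm markers 2 were in the table, with sums of 20.8 and 22.6 TPM, and of 3 blood markers 0 were in it. The sums of the other cell types were thus close in both libraries. Both sums rested mainly on a single gene, that for sperm on Prm2 with 19.8 and 22.0 TPM. In pooled samples, fewer cells of a type and less RNA per cell cannot be told apart.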

How the data were processed

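Pooled PB2s and pooled zygotes gave 1 poly(A) RNA-seq library each. The group of each library was taken from the sample titles. Per the labels and the methods, the authors aligned reads with HISAT2 2.0.4, counted them with HTSeq 0.6.1p1 on Ensembl annotation 85 and normalized with DESeq2 1.18.1. The methods name OryCun2.0, a rabbit assembly, and the submitters' processing notes also GRCm38, while the identifiers are mouse ones. The authors deposited TPM values rounded to 1 decimal, and how TPM was computed is not given in the sources used here. Depth is unknown, so no interval for counting error is given. TPM are proportions of a library.

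Libraries were compared by the log2 of PB2 TPM plus 1 divided by zygote TPM plus 1, for genes reaching 1 TPM in either library, and a gene was counted when at least 2-fold apart. Transcripts were the longest protein-coding ones of the GENCODE M21 basic set (GRCm38), found by identifier for 11221 genes and missing for 41. Trends on GC content and log10 length were loess fits with a span of 0.3. Named were all members, the most abundant gene of each list and up to 4 of its genes past 2-fold with the largest log2 ratios, and the 3 nearest genes of the most abundant member of each role. Protein features were not analysed here. The values of 1 listed gene are not reported here. Other genes were named after their values were seen. The members, lists and settings were chosen with earlier results of these data known. Alternatives were pseudocounts of 0.1 and 0.01, no filter, a filter at 5 TPM, thresholds of 1.5-fold and 4-fold, 4 scalings and removal of either trend. The functions were tested on simulated data, built from genes abundant in the zygote with a GC trend put in. That test covered neither levels as low as those of Mcl1 and Bcl2l11 nor the length trend. The software was matplotlib 3.10.9, statsmodels 0.14.6, scipy 1.17.1, pandas 2.3.3 and numpy 2.4.6 under Python 3.11.15.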

Additional observations from a re-analysis of the deposited data

How the results depend on the processing

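No paired analysis was possible because each group has 1 library. A log2 value was taken as moved past a shift of 0.5 and a count past a factor of 1.5. Under the pseudocounts, filters and scalings Bcl2l1 and Bcl2l11 remained the members past 2-fold towards PB2, and under no alternative did a member pass 2-fold towards the zygote. With the GC trend removed, the log2 ratio of Bcl2l1 was 0.69 and that of Bax -0.57, and 1 member passed 2-fold, Bcl2l11. With the length trend removed 1 member passed, Bcl2l1. Of 49 member log2 ratios under 10 alternatives, 47 were above 0, the exceptions being Bax and Bcl2l10 with the GC trend removed. The filters leave a member's ratio unchanged and the pseudocounts cannot turn its sign. That leaves the scalings and the trend removals. Of the scalings, centring on the median shifted the log2 ratios most, by 0.21, less than the lowest member log2 ratio of 0.28. Only the trend removals could therefore have turned a direction. At 4-fold 0 members passed, with 4 listed pathway genes passing towards PB2 and 0 towards the zygote, and at 1.5-fold 17 listed genes passed towards PB2 and 10 towards the zygote. These follow from the thresholds. Without Bcl2l10 the log2 of prosurvival over effector level turned from 8.61 to -0.67 in the zygote and went from 8.54 to 0.36 in PB2. That both values fell follows by construction from leaving out the most abundant member. The difference, PB2 minus zygote, went from -0.07 to 1.04, a value set by the deposited levels of Bcl2l1, Mcl1 and Bax. Counting Bok apart gave no value, as Bok was not analysed here, and the filter at 5 TPM left out Mcl1.

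Over the whole table, 2009 genes passed 2-fold towards PB2 and 861 towards the zygote, so that PB2 had 70.0% of them. The PB2 counts were 968 with the GC trend and 1285 with the length trend removed. With the GC trend removed PB2 had 45.5% of the calls and with the length trend removed 50.8%. Removing either trend also takes out the table's common shift. Centring alone gave 1387 and 1291, a share of 51.8%, and Actb scaling 1572 and 1132, a share of 58.1%. At 1.5-fold they were 3651 and 1939, and at 4-fold 264 and 74. The cause of the changes with GC content and length was not tested. Unknown depth limits Mcl1 and Bcl2l11 most, since both are low.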
